A study of Drosophila melanogaster with 9 samples.

Results

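Testes labelled comr were compared with control testes across all genes on an Affymetrix expression array of Drosophila melanogaster. The comparison used 6 of the 9 arrays of the series, the 3 titled comr and the 3 titled red e, chosen by title alone. The other 3 arrays, from w; can[3] red[1] e[1] males, served only to estimate the spread between replicates. Flies were kept at 25 °C, and testes were taken by dissection from males no more than a day after eclosion.

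The genotype given for the arrays labelled comr is comr[z1340] cn[1] bw[1], where comr is the mutant gene and cn and bw are eye colour markers. The control genotype is red[1] e[1], a chromosome with recessive markers that also carries the can allele in the can mutant, and its testes are described as normal. The labels of the first group conflict: the source name gives aly[5] and the description an aly mutant, while title, genotype and design text give comr. Both genes belong to the same class, and the group is called labelled comr here. The groups also differ in their marker chromosomes, so that strain background and mutation cannot be told apart. Whether the 3 arrays of a group go back to separate dissections is not stated, and p values then reflect the spread among arrays alone, which may be technical. Whole testes were measured, and fewer cells of a type and less RNA per cell cannot be told apart in such samples.

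As background, comr (cookie monster) and aly (always early) encode subunits of tMAC, a testis complex on chromatin that acts in primary spermatocytes. In males that lack either one, germ cells grow as spermatocytes and then stop before the meiotic divisions, so that the testis holds no spermatids. Spermatocytes normally make most of the transcripts that spermatids use after transcription has largely ceased. Many of these come from testis paralogs of genes that other cells use, which are called second copies here.

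The 6 arrays fell into their labelled groups. Correlations across probe sets were 0.987 to 0.989 among the arrays labelled comr, 0.978 to 0.981 among the control arrays and 0.618 to 0.635 between the groups. Control probe sets without a spiked target had a highest signal of 20.3, used as the floor below, and 56.9% to 57.5% of probe sets lay above it on the arrays labelled comr, against 58.7% to 59.7% on the control arrays. For GAPDH the 3' signal over the 5' signal, a sign of RNA quality, was 5.27 to 6.47 on the arrays labelled comr and 2.28 to 2.87 on the control arrays. For eIF4a this quotient was 5.77 to 7.41 on the arrays labelled comr and 4.99 to 5.55 on the control arrays, also apart, and for actin it was 2.24 to 2.52 and 2.51 to 2.68, which overlap. The part of this difference in the results below was not tested.

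Signals of 13966 probe sets were compared on the log2 scale after adding 16, and a probe set was called at an adjusted p under 0.05 and at least 2-fold. In testes labelled comr 1661 probe sets were lower, 11.9% of those tested, and 2849 were higher, 20.4% of those tested. With 1 probe set for each of 10826 genes, 1481 genes (13.7%) were lower and 2510 (23.2%) higher. These shares are also a background for the list counts below. The lower calls were fewer and larger: their median fitted log2 difference was -2.69, against 1.49 for the higher calls and 0.03 over all probe sets. A difference of at least 8-fold was reached by 734 of the lower and 38 of the higher probe sets. At 16-fold or more the counts were 423 lower and 5 higher.

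For 921 of the lower probe sets, 55.4%, all 3 arrays labelled comr lay at or under the floor. The same held on the control arrays for 561 of the higher probe sets, 19.7%. Such probe sets have only a bound on one side, and their change is given below as at least N-fold, the mean of the brighter group over the floor. On all 6 arrays 3643 probe sets were at the floor. With such probe sets held at their bounds the median was -2.64 for lower and 1.48 for higher calls, and 724 lower and 45 higher probe sets reached 8-fold. List medians below are of fitted values. Held at the bounds, the medians of second copies were -4.79 for glycolysis, -4.58 for the TCA cycle, -4.29 for mitochondrial import and -3.05 for PP1 phosphatases, the general import list stood at -0.24 and the signalling list at 0.12.

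**Figure D1:**
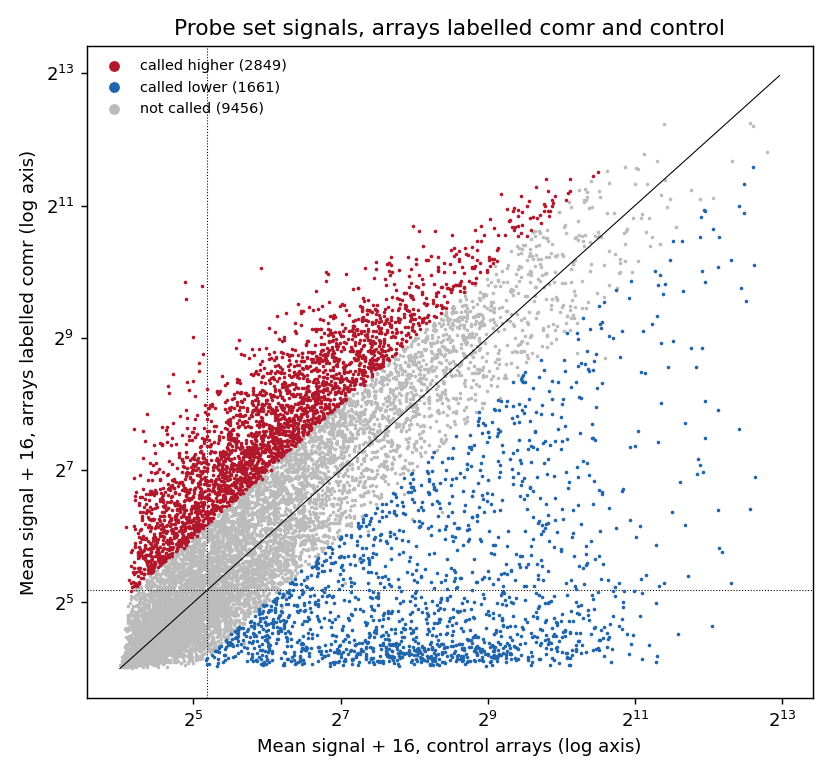
Mean signal plus 16 of each probe set on the 3 arrays labelled comr (vertical, log axis) against the 3 control arrays (horizontal, log axis), coloured by call, with the diagonal and the floor of 20.3 (dotted). The 1661 lower probe sets reach far below the diagonal and many lie at the floor of the arrays labelled comr, while the 2849 higher ones form a band close above the diagonal.

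The balance between rises and falls depended on the level against which they were read. The authors had scaled every array to the same trimmed mean of 100, and lower calls made up 36.8% of all calls on that scale. Scaled instead on 26 ribosomal protein genes, 3405 probe sets were lower and 934 higher, so that 78.5% of the calls were lower and the median of all probe sets was -0.37. Scaled on the 9 spiked hybridisation control probe sets, 1434 were lower and 3797 higher, with a median of 0.19. Across these, quantile and median scaling and the deposited scale, 1429 probe sets were lower and 934 higher under all 5, and none was called in opposite directions. Ribosomal protein genes were themselves often higher on the deposited scale. By symbol stem 10 of 18 RpL and 6 of 15 RpS genes were higher, with medians of 1.14 and 0.94. These stems do not match the 26 scaling genes exactly. Scaling on genes that rose lowers all differences by construction, so a rise that holds there is a rise relative to these genes. Rises in gene lists are given below with the number that held with ribosomal protein scaling.

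Probe sets with the highest signals on the control arrays were often lower in testes labelled comr. A signal depends on the probes as well as on the transcript, so its rank is not a rank of transcript abundance. Of the 100 probe sets with the highest mean on the control arrays 75 were lower and none higher, and of the brightest 1000 there 591 were lower and 65 higher. Ranked on the arrays labelled comr, the 100 brightest held 8 lower and 44 higher probe sets and the 1000 brightest held 49 lower and 489 higher. These ranks use the same signals as the calls and are a description only. The 100 brightest probe sets took 12.05% to 13.11% of all signal on the arrays labelled comr and 17.5% to 18.0% on the control arrays.

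Transcripts of both genes named by the labels gave signal above the floor in testes labelled comr. The comr transcript gave 34.7, 30 and 35.7 on the arrays labelled comr, against 13.9, 14.2 and 23.8 on the control arrays. Only 1 control array lay above the floor, and the log2 difference of 0.58 (SE 0.161, adjusted p = 0.00865) was under 2-fold. The aly transcript gave 526.9, 551.2 and 558.8 on the arrays labelled comr and 79.8, 89.5 and 89.6 on the control arrays, a log2 difference of 2.46 (SE 0.0748, adjusted p = 1.96e-10). Neither transcript was lower, and a probe set does not show whether the RNA carries a mutation. The can transcript, for a testis homolog of the general factor Taf5, gave 174.7, 165.4 and 149.0 on the arrays labelled comr, against 25.3, 28.1 and 41.9 on the control arrays, and rose by 1.92 on the log2 scale.

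Of the marker genes, cn, for a kynurenine hydroxylase of eye pigment, was under the floor on every array. The bw transcript, for an eye pigment transporter, gave 27.4, 35.8 and 37.1 on the arrays labelled comr, against 29.3, 37.4 and 29.6 on the control arrays, with a log2 difference of 0.04. The e transcript, for a beta-alanyl amine synthase, gave 13.8, 10.7 and 15.7 on the arrays labelled comr and 33.3, 42.0 and 46.0 on the control arrays, at least 1.97-fold lower. Its fitted log2 difference of -0.94 was not called, but was called without control replicate 1 (-1.03). No probe set was found for red or w.

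Of the 12 largest falls 10 had all 3 arrays labelled comr at or under the floor. CG12860 gave 7.8, 8.4 and 11 on the arrays labelled comr, against 4440.7, 4132.7 and 4120.7 on the control arrays, and was at least 208-fold lower. Pglym87, a second copy of the glycolytic enzyme phosphoglycerate mutase, gave 1, 0.8 and 1.7 in testes labelled comr, against 2464.5, 2349.7 and 2607.9 in control testes, at least 122-fold lower. The mitochondrial glutamate dehydrogenase bb8, known for a role in spermatids, gave 2.9, 2.7 and 2.1 on the arrays labelled comr and 1788.5, 2016.7 and 1986.5 on the control arrays, at least 95.0-fold lower. The groups did not overlap for any of these 3 genes, and the true falls may be larger than the bounds. CG8701 gave 18.7, 23.2 and 27.6 on the arrays labelled comr, against 5077.2, 4947.4 and 5147.4 on the control arrays, a log2 difference of -7.02 (SE 0.0801, adjusted p = 5.61e-13). CG2127 was above the floor on all 6 arrays, with 40, 29.4 and 45.1 on the arrays labelled comr and 4744.7, 4726.6 and 4454.8 on the control arrays, a log2 difference of -6.44. The other 7 were CG4691, CG3213, CG3517, CG4983, Bfc, CG8813 and CG42855, at least 80.5-fold to at least 151-fold lower. All 12 were lower under all 5 scalings.

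The largest rises started at or near the floor in control testes. RpL22-like, a germline paralog of the ribosomal protein RpL22, gave 890.3, 926.7 and 894.6 on the arrays labelled comr, against 18.3, 17.9 and 4.6 on the control arrays, at least 44.5-fold higher. The testis paralog of the nascent polypeptide complex subunit betaNAC, betaNACtes1, gave 1056.6, 1042.3 and 1037.8 in testes labelled comr and 30.9, 40.8 and 61.7 in control testes, a log2 difference of 4.17 (SE 0.157, adjusted p = 1.11e-09). CG9360 gave 528.6, 426.7 and 554.6 on the arrays labelled comr, against 19.8, 9.7 and 17.9 on the control arrays, at least 24.6-fold higher. In these 3 rises it was the control signals that lay at or near the floor.

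Several of the other large rises encode nuclear proteins. Nup107, a scaffold protein of the nuclear pore, gave 300.9, 331.8 and 371.3 on the arrays labelled comr, against 10.1, 8.3 and 12.5 on the control arrays, at least 16.4-fold higher. The Polycomb repressive complex subunit esc gave 280.7, 302.2 and 301.3 in testes labelled comr and 14.4, 5.8 and 7.5 in control testes, at least 14.5-fold higher. The TFIIH helicase hay gave 334.5, 337.7 and 361.6 in testes labelled comr and 18.3, 11.5 and 23.6 in control testes, a log2 difference of 3.43 (SE 0.124). Clbn (Caliban) and Uhg1, a host transcript of small nucleolar RNAs, were at least 10.5-fold and 8.95-fold higher. CG33111, CG14667 and CG7213 were at least 18.5-fold, 15.04-fold and 13.4-fold higher, and mdlc had a log2 difference of 3.67. All 12 largest rises were called under all 5 scalings.

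**Figure D2:**
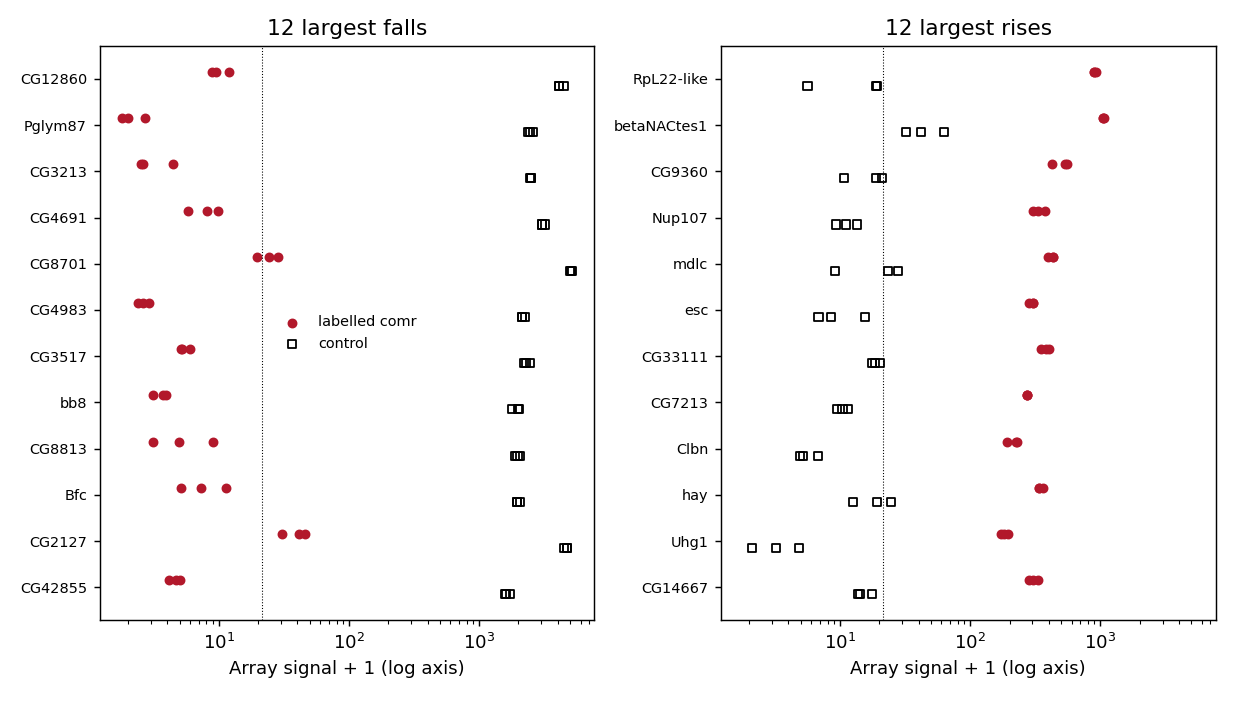
Signal plus 1 on each array (horizontal, log axis) for the 12 largest falls (left) and the 12 largest rises (right), with arrays labelled comr as filled circles, control arrays as open squares and the floor of 20.3 dotted. The groups are apart in every row, and in the rises it is the control arrays that lie at or near the floor.

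Some of the probe sets with the highest signals were not called. The probe set annotated to the adenylyl cyclase gene rut gave 4416.8, 4792.7 and 5397.7 on the arrays labelled comr. On the control arrays it gave 6163.2, 5924.7 and 5984.9, a log2 difference of -0.31. The names of the probe sets of rut, CG34347 and Ubi-p5E end in _f_at. Such probe sets may match several sequences, so their signal need not come from these genes alone. CG18628, CG34347, the metallothionein MtnA and the polyubiquitin gene Ubi-p5E, also among the 6 highest of a group, had log2 differences of -0.40, -0.64, 0.84 and 0.37 and were not called. Of these 5, rut, CG18628 and CG34347 were lower with ribosomal protein scaling, MtnA was called higher under 2 other scalings and Ubi-p5E under 1. CG33340, one of the 6 highest on the control arrays, gave 94.9, 93.1 and 122.3 on the arrays labelled comr, against 6483.1, 6112.3 and 6332.8 on the control arrays, a log2 difference of -5.74 (SE 0.0892, adjusted p = 1.67e-12).

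The Mst84D cluster encodes small structural proteins of the sperm tail, and its members differed in size of fall. Mst84Dd gave 949.2, 1082.6 and 1217.5 on the arrays labelled comr and 6487.5, 5806.5 and 6455.1 on the control arrays, a log2 difference of -2.52. Mst84Dc gave 3277.9, 3491 and 3999 in testes labelled comr, against 7043.5, 7505.4 and 6773.8 in control testes, a log2 difference of -0.99 that was short of 2-fold and was called without control replicate 3 (-1.02) or labelled comr replicate 3 (-1.07). Mst84Da, with 2848.9, 3069.4 and 3265.3 on the arrays labelled comr and 6513.9, 5750 and 6470.3 on the control arrays, had a log2 difference of -1.02. It lost its call without control replicate 1 (-0.99), control replicate 3 (-0.998) or labelled comr replicate 1 (-0.974). Mst84Da was called lower under 2 of the 5 scalings, with log2 differences from -2.03 to -0.30, Mst84Dc under 1 and Mst84Dd under all 5. These near-identical genes may share signal across their probe sets.

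Second copies and their general counterparts were set side by side in 7 systems. The lists were drawn up from annotation and textbook knowledge with earlier results of these data known, and they hold 67 measured second copies and 87 measured general genes. Of the second copies 47 were lower in testes labelled comr, 70.1%, against 11.9% of all probe sets, and 7 were higher, 10.4%, against 20.4% of all. Of the general genes 7 were lower, 8.05%, and 33 higher, 37.9%, against 13.7% and 23.2% of all genes. With the dimmest 50% of probe sets left out, 1392 of 6983 probe sets were lower and 2442 higher. With ribosomal protein scaling 52 second copies were lower and 2 higher, against 18 general genes lower and 5 higher.

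**Figure D3:**
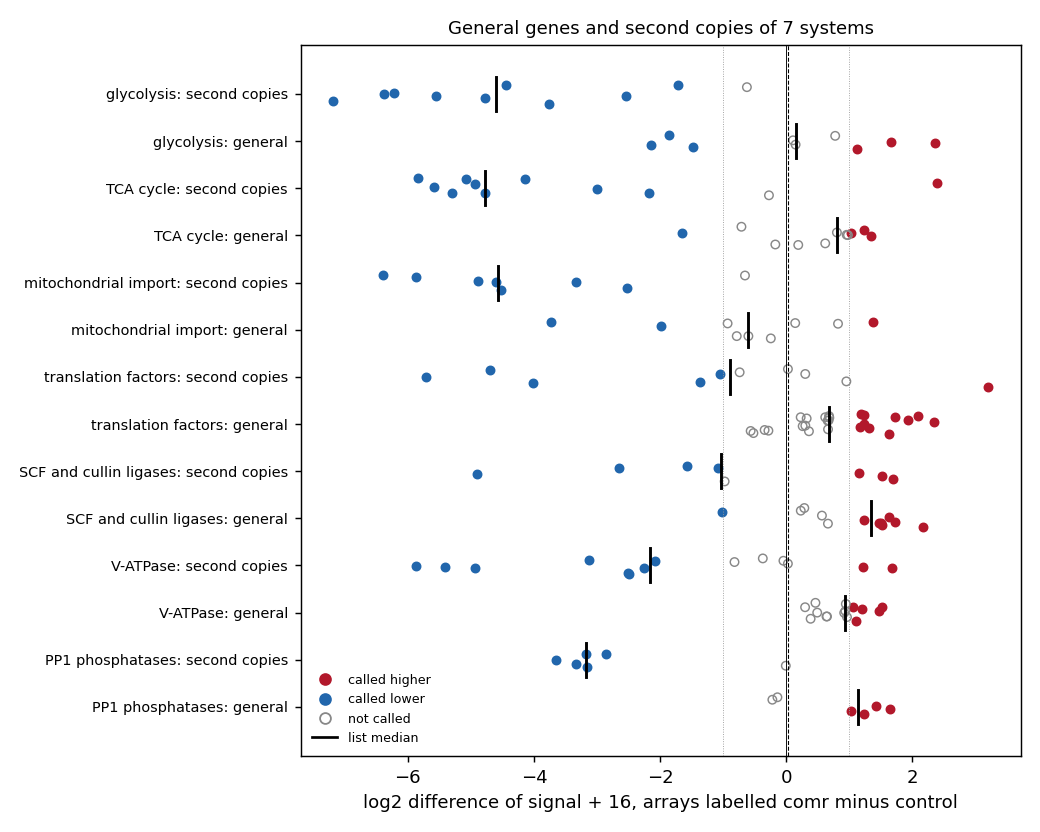
Log2 difference of signal plus 16, arrays labelled comr minus control, for each measured gene (point) of 7 systems, with second copies above the general genes of each system, the list median (bar) and the median of all probe sets, 0.03 (dashed). Second copies of glycolysis, the TCA cycle and mitochondrial import have medians of -4.61, -4.78 and -4.57, while the general lists have medians of -0.60 to 1.35.

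In glycolysis 9 of 10 second copies were lower, and the median log2 difference over the 10 was -4.61. The testis hexokinase Hex-t2 gave 2.1, 8.8 and 10.3 on the arrays labelled comr and 1936.3, 1762.6 and 1931.8 on the control arrays, at least 92.4-fold lower. CG12229, a pyruvate kinase paralog, gave 2.8, 4.7 and 3.1 in testes labelled comr, against 1482.5, 1310.2 and 1525.7 in control testes, at least 70.8-fold lower. The one member not called, CG7362, was under the floor on all 6 arrays. The 9 were lower under all 5 scalings.

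The general glycolytic genes moved in both directions, with 3 of 9 lower, 3 higher and a median of 0.15. The aldolase gene Ald1 gave 262.9, 228.2 and 288.1 on the arrays labelled comr and 1180.2, 1266.1 and 1141.9 on the control arrays, a log2 difference of -2.14 (SE 0.0996, adjusted p = 6.43e-09). Pfk, for the regulated enzyme phosphofructokinase, and Eno, for enolase, fell by 1.87 and 1.48. In contrast Pglym78, the general phosphoglycerate mutase, gave 164.7, 153.5 and 210.2 in testes labelled comr, against 14.1, 14.3 and 40.4 in control testes, a log2 difference of 2.36 (SE 0.255, adjusted p = 8.57e-06). For this enzyme the general copy was higher and the second copy lower in the same testes. Gapdh1 and Pgk rose by 1.66 and 1.12, and only Pglym78 of the 3 was called higher with ribosomal protein scaling.

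Of 11 second copies of TCA cycle enzymes, 9 were lower and 1 was higher, with a median of -4.78. The fumarase copy Fum3 gave 3, 1 and 4.5 on the arrays labelled comr, against 1056.3, 1037.5 and 1093.6 on the control arrays, at least 52.3-fold lower. Scsalpha2, for a succinyl-CoA synthetase subunit, and mAcon2, an aconitase, were at least 53.4-fold and 42.6-fold lower. Against the rest, CG10748, a malate dehydrogenase paralog, gave 588.5, 648.8 and 633.7 in testes labelled comr and 102.1, 118.6 and 96 in control testes, a log2 difference of 2.40 (SE 0.0879). Its neighbour in number, CG10749, gave 121.2, 94.5 and 111.3 on the arrays labelled comr and 559.3, 447.1 and 662.4 on the control arrays. The remaining member, SdhBL, a succinate dehydrogenase subunit copy, stayed among the bright transcripts of both groups, with 1454.1, 1480.8 and 1610.1 on the arrays labelled comr and 1785.4, 1974.7 and 1743.2 on the control arrays. CG10749 and SdhBL were named after their values were seen.

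The general TCA cycle list had a median of 0.81, with 1 of 11 lower and 3 higher. Over all genes 13.7% were lower and 23.2% higher. Idh3b, a subunit of isocitrate dehydrogenase, fell by 1.66 on the log2 scale, and its partner subunit Idh3g rose by 1.24. SdhC, a membrane subunit of succinate dehydrogenase, rose by 1.34. Ogdh, a subunit of the oxoglutarate dehydrogenase complex, had a log2 difference of 1.02 that was under 2-fold without labelled comr replicate 1 (0.91) or 2 (0.93). None of these rises held with ribosomal protein scaling, under which 3 members were lower.

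In protein import into mitochondria both lists held falls. Of 8 second copies 7 were lower, with a median of -4.57. The outer membrane receptor copy tomboy20 gave 2, 0.8 and 3.8 on the arrays labelled comr and 1377.6, 1538.8 and 1627.6 on the control arrays, at least 74.4-fold lower. The Tim50 copy ttm2 and the pore copy tomboy40 were at least 54.7-fold and 26.0-fold lower. Of 9 general import genes 2 were lower and 1, ttm50, was higher (log2 difference 1.37). The intermembrane chaperone Tim13 gave 34.7, 45.6 and 45.3 on the arrays labelled comr and 767.5, 722.9 and 765.9 on the control arrays. Its log2 difference was -3.74 (SE 0.105, adjusted p = 1.08e-10), a smaller fall than the median of the second copies. The receptor subunit mge, the fly Tom22, fell by 1.98. The general list had a median of -0.60, and with ribosomal protein scaling 6 of the 9 were lower and none higher.

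Among genes of mitochondrial fusion, fission and turnover, 4 of 9 were lower and 1 was higher. The mitofusin fzo, which fuses the mitochondria of early spermatids, gave 1.1, 1 and 1.5 on the arrays labelled comr, against 180, 123.5 and 149.4 on the control arrays, at least 7.35-fold lower. The channel protein copy Porin2 gave 19.7, 18.8 and 19.4 in testes labelled comr and 2104.4, 2299.8 and 2148.3 in control testes, at least 108-fold lower. The gene knon, for an ATP synthase subunit paralog of the spermatid mitochondrion, was at least 4.92-fold lower. The general inner membrane fusion gene Opa1 rose by 1.20, a call lost with ribosomal protein scaling.

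In the V-ATPase, a proton pump of many subunits, only second copies were lower. Of 14 second copies 8 were lower and 2 higher, with a median of -2.17. Of 15 general subunits none was lower and 5 were higher, with a median of 0.94. Over all genes 13.7% were lower and 23.2% higher, and with the dimmest 50% of probe sets left out 2442 of 6983 were higher. Vha68-3, a copy of the catalytic subunit, gave 0.7, 1.2 and 1.1 on the arrays labelled comr and 1000.2, 924.8 and 1029.2 on the control arrays, at least 48.5-fold lower. Vha36-2 and VhaM9.7-d were at least 37.4-fold and 39.3-fold lower. The copies VhaM9.7-a and VhaM9.7-c went the other way, with log2 differences of 1.68 and 1.22. Of the general subunits Vha100-1 rose by 1.52 and VhaAC39-1 by 1.48. With ribosomal protein scaling no V-ATPase gene of either list was higher and 9 second copies were lower.

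Of 6 second copies of PP1-type protein phosphatases, 5 were lower, with a median of -3.17. PpD6 gave 2, 0.9 and 2.5 on the arrays labelled comr, against 202.2, 211.8 and 208.7 on the control arrays, at least 10.2-fold lower. PpY-55A and PpN58A were at least 11.3-fold and 7.76-fold lower. Of 6 general phosphatase genes 4 were higher and none lower, led by Pp4-19C at 64.2, 59.6 and 68.2 on the arrays labelled comr and 10.3, 8.5 and 9.5 on the control arrays. Pp1-87B, the main PP1 catalytic subunit in other tissues, rose by 1.43, and 1 of the 4 rises held with ribosomal protein scaling.

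Translation factors were more mixed. Of 10 second copies 5 were lower and 1 higher, with a median of -0.89. The cap-binding protein eIF4E4 gave 1.9, 2.5 and 1.2 on the arrays labelled comr and 878.1, 910 and 988.4 on the control arrays, at least 45.5-fold lower. Another copy of the same protein, eIF4E6, gave 630.4, 629.4 and 634.1 in testes labelled comr and 55.8, 55.7 and 52.2 in control testes, a log2 difference of 3.20 (SE 0.0886, adjusted p = 9.32e-11), higher under all 5 scalings. These 2 cap-binding copies moved in opposite directions in the same arrays. The eIF3 subunit copies eIF3d2 and eIF3g2 were at least 27.8-fold and 13.6-fold lower. A further copy, eIF3f2, with a log2 difference of 0.95, was called higher without control replicate 1, which brought the list to 2 rises.

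Of 25 general translation factors none was lower and 10 were higher, with a median of 0.67. The general eIF3d1 gave 508, 536.2 and 564.8 on the arrays labelled comr, against 112.8, 91.8 and 139.9 on the control arrays, and rose by 2.09 on the log2 scale while its copy eIF3d2 fell. The eIF3 subunit eIF3f1 and the elongation factor subunit eEF1delta rose by 2.35 and 1.94. On ribosomal protein scaling 2 of the 25 were higher and 4 lower.

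SCF and cullin complexes, which attach ubiquitin to proteins, included copies that rose as well as copies that fell. Of 8 second copies and spermatid partners 4 were lower and 3 higher. The RING subunit copy Roc1b gave 1.9, 1.9 and 2.5 on the arrays labelled comr, against 493, 549 and 538.2 on the control arrays, at least 25.9-fold lower. SkpF fell by 2.65 and the F-box gene ntc, known for caspase activation in spermatids, by 1.57. The Skp1 paralogs SkpE, SkpC and SkpD had log2 differences of 1.70, 1.53 and 1.15, and none of the 3 was called higher with ribosomal protein scaling. A second probe set of SkpD was not called. The probe sets given for SkpC and SkpD also have names ending in _f_at and may match several sequences.

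Of 12 general SCF and cullin genes 7 were higher and 1, Cul3, was lower. Cul3 gave 702.9, 684.5 and 720.4 on the arrays labelled comr and 1401.5, 1386.9 and 1544.8 on the control arrays, a log2 difference of -1.02 that was under 2-fold without control replicate 3 (-0.97). CSN5, the isopeptidase of the COP9 signalosome, gave 477.9, 458.6 and 458.2 in testes labelled comr and 105.2, 84.9 and 82.7 in control testes, and rose by 2.17. Cul4 and Cul5 rose by 1.72 and 1.62, and 1 of the 7 rises held with ribosomal protein scaling.

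The microtubule cytoskeleton changed in a few members. Of 8 tubulin genes 2 were lower and none higher. The testis tubulin betaTub85D, which builds the meiotic spindle and the axoneme, gave 241.6, 273.3 and 212.4 on the arrays labelled comr and 2714.1, 2490.8 and 2632.6 on the control arrays, a log2 difference of -3.35 (SE 0.0940, adjusted p = 1.03e-10). The transcript of alphaTub84D gave 412.2, 468.6 and 448 in testes labelled comr, against 4151.4, 3316.1 and 4084.7 in control testes, and fell by 3.07. Scaled on ribosomal proteins, 5 of the 8 were lower.

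Of 19 kinesin genes 2 were lower and 7 higher, against 13.7% and 23.2% of all genes. The kinesin-13 genes Klp59C and Klp59D, for microtubule depolymerases, were at least 28.4-fold and 30.1-fold lower, with Klp59C at 3.9, 2 and 2.9 on the arrays labelled comr and 584.8, 525.5 and 620.6 on the control arrays. Klp31E gave 139.8, 134.7 and 131.6 in testes labelled comr and 9.3, 18.5 and 8.4 in control testes, at least 6.67-fold higher. The kinesin light chain Klc and the spindle motor Klp61F rose by 2.42 and 1.98. The rises of these 3 were called under all 5 scalings, and 4 of the 7 kinesin rises held with ribosomal protein scaling.

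Of 14 genes of cytoplasmic dynein and its activator dynactin, 2 were lower and 7 higher, against 13.7% and 23.2% of all genes. The dynactin subunit DCTN2-p50 gave 598.2, 610.1 and 676.9 on the arrays labelled comr and 85.5, 116.2 and 109 on the control arrays, a log2 difference of 2.44. DCTN5-p25 and DCTN1-p150 rose by 1.72 and 1.57. The light chain Cdlc2 gave 848.7, 1011.3 and 1066.9 in testes labelled comr, against 2553.5, 2566.9 and 2624 in control testes, and fell. The regulator nudE fell by 1.02, a difference under 2-fold without control replicate 1 (-0.97) or labelled comr replicate 1 (-0.94). A single rise, 1 of the 7, held with ribosomal protein scaling.

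Of 12 centriole and basal body genes 5 were higher and 1 lower, against 23.2% and 13.7% of all genes. Sas-4, which builds centrioles, gave 85.7, 92.8 and 80.1 on the arrays labelled comr, against 6.6, 15.3 and 10.9 on the control arrays, at least 4.24-fold higher. The centriole genes ana3 and asl rose by 1.91 and 1.33, and Cep97 fell by 1.19. Of 14 cytokinesis genes 5 were higher and none lower, among them vib, for a phosphatidylinositol transfer protein, fws, for a Golgi tethering subunit, and scra, for anillin, with log2 differences of 1.87, 1.78 and 1.44. Of 9 actin and Arp2/3 genes 4 were higher and none lower (2 with ribosomal protein scaling), with the Arp2/3 subunits Arpc2 and Arpc3A at 1.77 and 1.54. Of the rises in these 3 lists 2, 2 and 0 held with ribosomal protein scaling.

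Most lists of nuclear machinery held higher genes and no lower ones, nuclear transport factors excepted. In 9 lists that cover DNA replication, cyclins, the anaphase-promoting complex, histone variants, dosage compensation, RNA polymerase II, Mediator, the spliceosome and nucleoporins, 100 of 165 measured entries were higher and none lower, against 20.4% and 11.9% of all probe sets. With the dimmest 50% of probe sets left out, 2442 of 6983 were higher and 1392 lower. With ribosomal protein scaling 40 of the 165 entries were higher and up to 2 members of a list were lower. Dividing and growing cells of all tissues use genes of these lists.

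**Figure D4:**
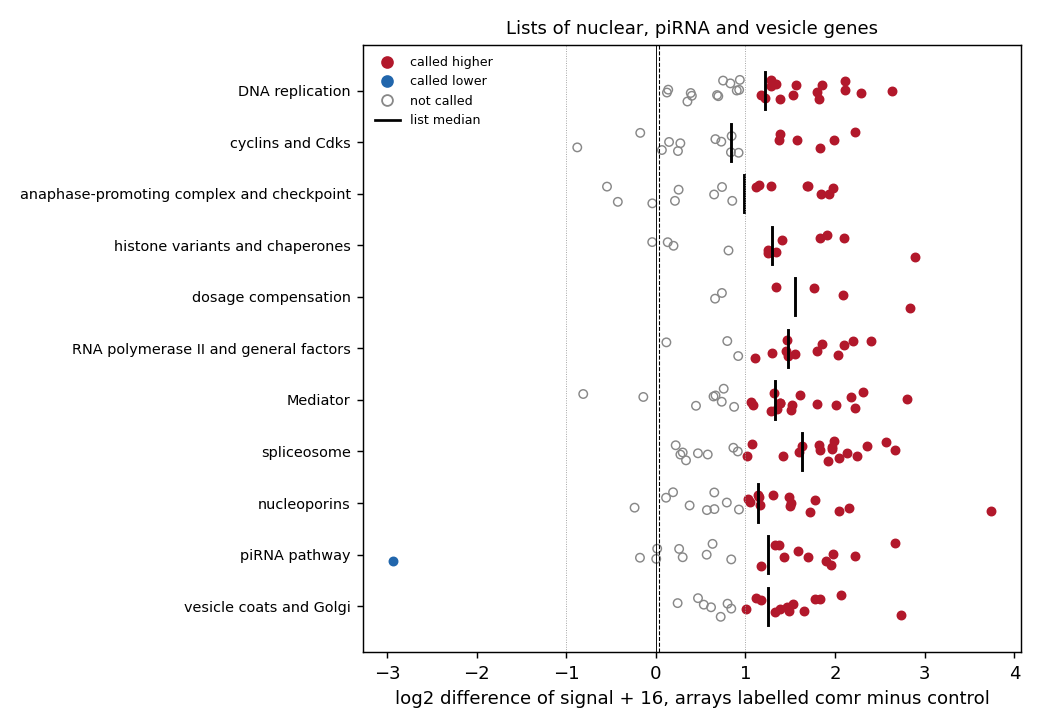
Log2 difference of signal plus 16, arrays labelled comr minus control, for each measured gene (point) of 9 nuclear lists, the piRNA pathway and vesicle coats, with list medians (bars) and the median of all probe sets, 0.03 (dashed). List medians lie between 0.84 and 1.63, and the single lower call is papi of the piRNA pathway.

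In DNA replication 15 of 27 genes were higher, 6 also with ribosomal protein scaling, with a median of 1.22. The GINS subunit Psf1 gave 162.3, 175.5 and 161.3 on the arrays labelled comr and 27.3, 9.1 and 7.5 on the control arrays, a log2 difference of 2.63 (SE 0.200, adjusted p = 4.14e-07). The origin recognition subunit Orc2 and the helicase subunit Mcm5 were at least 3.92-fold and 5.605-fold higher. Of 17 cyclins and their kinases 6 were higher, against 23.2% of all genes. With the dimmest 50% of probe sets left out, 2442 of 6983 were higher. With ribosomal protein scaling 2 of the 17 were higher and 2 lower. The rises were led by CycC, CycH and Cdk12 with log2 differences of 2.23, 1.99 and 1.83, all 3 of which act in transcription. Of 16 genes of the anaphase-promoting complex and spindle checkpoint 8 were higher, 3 with that scaling, led by the checkpoint genes Mad1, Bub3 and mad2 at 1.97, 1.93 and 1.84.

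Histone variants and chaperones held 8 higher genes of 12, 2 of them also with ribosomal protein scaling, with a median of 1.30. BigH1, the linker histone of the germline, gave 309.5, 326.9 and 270.9 on the arrays labelled comr, against 41.9, 15.2 and 27 on the control arrays, a log2 difference of 2.90 (SE 0.185, adjusted p = 9.25e-08). The histone chaperones Nap1 and Nph rose by 2.10 and 1.91. Of 7 heterochromatin proteins only the gene of HP1a, which binds methylated histone H3, was called, with 268.1, 264 and 242.7 on the arrays labelled comr and 77.9, 77.8 and 78.1 on the control arrays. Its log2 difference of 1.54 was not called with ribosomal protein scaling.

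Of 6 dosage compensation genes, which raise X transcription in male somatic cells, 4 were higher. The helicase gene mle gave 240.7, 249.3 and 223.5 on the arrays labelled comr and 16.2, 16.8 and 26.2 on the control arrays, a log2 difference of 2.84 (SE 0.121, adjusted p = 3.01e-09). The complex subunits msl-3 and msl-1 rose by 2.09 and 1.76. These 3 were called under all 5 scalings.

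Transcription and splicing machinery also held many rises. Of 15 genes for RNA polymerase II and its general factors 12 were higher, 5 also with ribosomal protein scaling, led by Polr2E, at 353.5, 365.4 and 370.1 on the arrays labelled comr, against 44.3, 71.1 and 53.8 on the control arrays. TfIIA-S-2, a TFIIA subunit, and Polr2J followed, with log2 differences of 2.20 and 2.10. Of 24 Mediator genes, which link activators to the polymerase, 16 were higher, 6 with that scaling, led by MED24 at 233.9, 257.3 and 222.3 in testes labelled comr and 11, 32.1 and 20.7 in control testes. MED17 rose by 2.31. Of 25 spliceosome genes 17 were higher, and 10 held with ribosomal protein scaling. Prp8, the core of the spliceosome, gave 349.1, 319.2 and 346.3 on the arrays labelled comr, against 53.4, 26.6 and 42.8 on the control arrays. The splicing regulator tra2, with 1079.1, 1026.4 and 1021.3 in testes labelled comr and 159.7, 169.3 and 157.9 in control testes, rose by 2.57, and SC35 by 2.35. A second probe set of SC35 was not called.

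At the nuclear envelope 14 of 23 nucleoporins were higher, 3 also with ribosomal protein scaling. After Nup107, described above, Nup43 and Nup35 rose by 2.15 and 2.05. Transport factors were divided, with 3 of 15 lower and 2 higher (4 and 1 with that scaling). The copy of the small GTPase Ran, Ran-like, gave 3.8, 1.5 and 0.8 on the arrays labelled comr, against 994.1, 1104.1 and 1098.7 on the control arrays, at least 52.4-fold lower. The export factor paralog nxf4 was at least 12.7-fold lower, and Pen, an importin alpha, gave 871, 924.4 and 918.8 in testes labelled comr and 3755.5, 4093.9 and 4034.7 in control testes, a log2 difference of -2.11. The exportin emb and the importin Tnpo rose by 2.40 and 1.17.

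Of 20 genes for vesicle coats and the Golgi 13 were higher and none lower. The Golgi SNARE Gos28 gave 551.6, 651.8 and 513.2 on the arrays labelled comr, against 75.9, 75.8 and 63.7 on the control arrays, a log2 difference of 2.74 (SE 0.0947, adjusted p = 5.64e-10). The coat subunits betaCOP and Sec13 rose by 2.07 and 1.83, and 3 of the 13 rises held with ribosomal protein scaling. Of 14 caspase and cell death genes 5 were higher and none lower (2 with ribosomal protein scaling), against 23.2% and 13.7% of all genes. The rises were led by the initiator caspase Dronc, its adaptor Dark and p53, with log2 differences of 1.95, 1.81 and 1.22. Of the 5 rises 2 held with ribosomal protein scaling.

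The piRNA pathway silences transposons in the germline. Of its 20 measured genes 11 were higher and 1 lower, and 5 rises held with ribosomal protein scaling. The Tudor protein gene tej gave 144, 163.9 and 150.6 on the arrays labelled comr and 13.7, 4.6 and 14.8 on the control arrays, at least 7.52-fold higher. The pathway genes vret and mael rose by 2.23 and 1.97. The exception was papi, for a Tudor protein on the mitochondrial surface, with 40.1, 54.7 and 44.2 in testes labelled comr and 402.8, 510.9 and 461.8 in control testes, a log2 difference of -2.93 (SE 0.116, adjusted p = 1.74e-09).

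Thioredoxins and peroxidases split 3 lower to 3 higher of 13, against 13.7% lower and 23.2% higher of all genes. The rises were thus near the share of all genes. Prx1 gave 5.5, 17.3 and 14.7 on the arrays labelled comr, against 986.8, 1016.6 and 1041.2 on the control arrays, at least 49.98-fold lower, while the mitochondrial peroxiredoxin Prx3 gave 615.1, 598.3 and 706 in testes labelled comr and 165.3, 148 and 173.7 in control testes, a log2 difference of 1.88. The testis thioredoxin TrxT and the reductase Trxr2 fell by 1.31 and 1.16, and Prx6a and Trx2 rose by 1.42 and 1.08. None of the 3 rises held with ribosomal protein scaling.

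Of 17 genes of JAK-STAT, Hedgehog, BMP and EGF signalling 6 were higher and none lower (1 with ribosomal protein scaling). Over all genes 23.2% were higher and 13.7% lower. None of the 6 rises held with ribosomal protein scaling. The BMP receptor gene sax and the transcription factor gene Stat92E had log2 differences of 1.82 and 1.42. The receptor gene put gave 95.4, 52.6 and 47.3 on the arrays labelled comr, against 15.8, 20.2 and 15.1 on the control arrays, at least 3.05-fold higher. The call of put rested on labelled comr replicate 1, without which the fitted log2 difference was just under 2-fold (1.00), and a second probe set of Stat92E was not called.

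Markers of germ cell stages changed in both directions. All 10 spermatid markers were lower, with summed signals of 1461.3, 1526 and 1500.7 on the arrays labelled comr and 11423, 11484 and 11481 on the control arrays. Mst77F, for a protein of sperm chromatin, gave 7.9, 8.2 and 16.4 in testes labelled comr, against 1791.5, 1794.6 and 1813.2 in control testes, at least 88.7-fold lower. The cup gene w-cup and the sperm tail gene dj were at least 60.1-fold and 89.3-fold lower. The smallest fall among the 10 was that of soti, with 899.3, 953.3 and 873.7 on the arrays labelled comr and 1911.6, 1986.9 and 1950.6 on the control arrays, and it was the only one not called under all 5 scalings.

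Of 8 spermatocyte markers 7 were higher, 6 also with ribosomal protein scaling, with summed signals of 5435.9, 5793.2 and 5443.6 on the arrays labelled comr and 1690.3, 1742.4 and 1744.3 on the control arrays. The testis factor genes nht and mia and the RNA-binding protein gene Rbp4 rose by 2.93, 2.78 and 2.49, although a second probe set of mia was not called. The genes aly and can, which the labels name, are 2 of these 8 markers. Of 5 spermatogonial markers 3 were higher: zpg, a germline gap junction gene, and vas, a germline helicase, with log2 differences of 2.06 and 1.37, and bam, which ends the mitotic divisions, at least 5.33-fold higher. Of these 3 rises 2 held with ribosomal protein scaling. Their list summed to 701.8, 677.8 and 678.8 on the arrays labelled comr and 225.2, 219.4 and 233 on the control arrays.

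Markers of the somatic cells of the testis gave few calls. Of 7 cyst and hub cell markers 1, CadN, was lower, at least 2.70-fold, and the list summed to 250.3, 248.5 and 252.3 on the arrays labelled comr and 277.4, 339.7 and 292.2 on the control arrays. Accessory gland genes, for proteins of the seminal fluid, varied within groups: the 10 markers summed to 1728.5, 70 and 45.5 on the arrays labelled comr and 4087.6, 2104.7 and 607.1 on the control arrays. None was called, but Acp95EF was called without labelled comr replicate 1 (log2 difference -5.54, against -3.73 over all arrays) or can replicate 2 and SP without control replicate 3 (-2.66, against -1.65). Without the 3 arrays with most of this signal, 1 in each genotype, 1676 probe sets were lower and 2807 higher, close to the counts over all arrays.

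Markers of other tissues were mostly not called. The 4 ejaculatory duct and bulb markers summed to 418.1, 370.4 and 320.4 on the arrays labelled comr and 500.9, 373.5 and 461.7 on the control arrays, with EbpIII and Gld at log2 differences of -0.31 and 0.36. The 5 neuronal markers, nSyb and brp among them, summed to at most 71.2 on any array. Of 7 fat body markers 2 were lower. Tsf1, a transferrin, fell by 1.90, and apolpp, the lipophorin precursor, gave 26.8, 16.8 and 19.7 in testes labelled comr, against 80.8, 78.5 and 85.2 in control testes. The list summed to 182.6, 184.5 and 215.3 on the arrays labelled comr and 602.2, 439.1 and 503.3 on the control arrays. A second probe set of apolpp was not called. The 4 muscle markers summed to 942.8, 739.3 and 950.5 on the arrays labelled comr and 552.7, 535.9 and 460 on the control arrays, with Mlc2 and up at 0.68 and 0.78 and none called. TpnC73F, at 0.90, was called without labelled comr replicate 2.

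Of 6 haemocyte markers 3 were higher and none lower, but with ribosomal protein scaling 1 was higher and 2 lower. Hml, for a clotting protein, was at least 4.73-fold higher. Col4a1, a basement membrane collagen, had a log2 difference of 1.28 and Pxn one of 1.25, the second of which fell under 2-fold without control replicate 3 (0.96). The haemocyte list summed to 991.9, 943.1 and 1140 on the arrays labelled comr and 1149.5, 1006.5 and 1014.8 on the control arrays, ranges that overlap. The collagen partner vkg had 2 probe sets that differed: the brighter gave 522, 534.2 and 637.3 on the arrays labelled comr and 923.9, 852.2 and 885.1 on the control arrays, and the other 139.3, 182 and 165.4 against 70.8, 47.9 and 35.8. The part that these other tissues play in the called genes was not tested.

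The share of genes called differed among chromosome arms, given here without a test. By arm, 16.9% of 1981 genes on 2L, 13.9% of 2180 on 2R, 13.3% of 2111 on 3L and 13.5% of 2722 on 3R were lower, against 11% of 1768 on X. On the small chromosome 4 it was 1 of 57 genes. Higher calls made up 20% of genes on X and 23.3% to 24.5% on the 4 large autosomal arms. The share of higher calls on X was the lowest of the 5 large arms under every scaling, and ranged from 5.37% with ribosomal protein scaling to 28.3% with spike scaling.

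Called genes also lay beside one another. In the order of the gene table, and counting measured genes only, 39.5% of the lower genes had a lower neighbour, against 22.1% of the other genes. Of the higher genes 54.9% had a higher neighbour, against 35.4% of the others. The longest run of lower genes held 9 neighbours on 3R: dpr11, CG1137, CG2336, CG1138, CG31482, glob2, sowi, CG15177 and sunz. In this run glob2, a globin gene, gave 17.7, 14.4 and 7.9 on the arrays labelled comr and 1015.8, 1162.3 and 1134.7 on the control arrays, at least 54.3-fold lower. The genes sowi and sunz were at least 64.3-fold and 25.1-fold lower, CG15177 at least 52.3-fold and CG2336 at least 25.7-fold. CG31482 was at least 18.8-fold lower, CG1137 at least 16.4-fold and CG1138 at least 2.86-fold. The first gene, dpr11, an immunoglobulin family gene, fell by 1.51 and had 2 further probe sets that were not called.

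A run of 7 lower genes on 2R held CG15873, Pgam5-2, CG3483, CG4563, CG3492, CG3494 and CG16837. Another lower run on X, from CG12535 to CG10804, was as long. In the run on 2R, CG3492 gave 7.6, 6.5 and 3.6 on the arrays labelled comr, against 922.6, 938.1 and 806.2 on the control arrays. It was at least 43.7-fold lower, and CG3483, an isocitrate dehydrogenase paralog of the second copies, was at least 30.2-fold lower. The log2 differences of the other genes of the run on 2R went from -4.85 for CG3494 to -1.16 for CG4563. The longest run of higher genes held 7 neighbours on 2L, Ip259, RpS27A, CG5355, Klp31E, RfC3, pie and Wdfy2, with log2 differences of 1.12 to 2.74. Within it pie (pineapple eye) gave 450.4, 479.1 and 523.1 on the arrays labelled comr, against 53, 61.5 and 62.6 on the control arrays. RfC3, a clamp loader subunit of DNA replication, gave 245.5, 219.1 and 234.2 in testes labelled comr and 46.6, 37.6 and 40.7 in control testes. A run of 6 on the same arm held CG17294, AlaRS, CG13392, Rcd4, Dad1 and CG13384, and there were 4 higher runs of that length. In the run named here CG13392, at 1.01, lost the call without control replicate 2 (1.00) or labelled comr replicate 3 (0.98).

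The fallen transcripts were less often those of named genes. Of 4898 probe sets whose only symbol is a CG or CR number 19.8% were lower and 16.4% higher, and of 7545 probe sets of named genes 7.59% were lower and 23.7% higher. Where a gene had several probe sets, they did not always give the same call. Of 385 such genes with a call, 78 had the same call on all probe sets, 305 had calls on some only and 2 had calls in opposite directions. These 2 were CG15747 and tau, for a microtubule-binding protein. One tau probe set gave 246.2, 136.6 and 127.9 on the arrays labelled comr and 30.8, 30.1 and 28 on the control arrays, and another gave 25.6, 40.4 and 26.7 in testes labelled comr and 86.7, 101.3 and 66.3 in control testes. The probe sets of tau thus moved in opposite directions between the same 2 groups.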

How the data were processed

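Biotin-labelled cRNA from 2 µg of total RNA, extracted from hand-dissected testes with Trizol, was hybridised to 1 array per sample, per the labels' protocols. Each deposited value is a linear intensity per probe set. GCOS 1.4 is the software that the submitters' processing notes name. Its background step is not given in the sources consulted. The mean of each deposited array without its lowest and highest 2% was 100, so the arrays share a scale, and no further normalisation was applied. That scale sets what counts as a rise or a fall, and ranks of signal across probe sets, used to choose genes and to describe the arrays, also depend on the probes. The number of arrays limits the precision.

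Of 14010 probe sets 44 controls were left out. Of the remaining 13966, 12443 had 1 symbol, 327 several and 1196 none. Symbols come from the platform's annotation, and 12436 probe sets were paired with the current gene table (Release 6 names, arms and order only). Sequences were not analysed here, so near-identical paralogs may share signal and the planned search for promoter motifs was not run.

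Each probe set was tested with limma 3.58.1 in R 4.3.3 on log2(signal + 16), with 1 coefficient per group over all 9 arrays, an intensity trend, two-sided tests and Benjamini-Hochberg adjustment over all 13966. Of these 4162 had an adjusted p under 0.05 and less than 2-fold difference. The fit was tested on simulated data. An exact permutation test of 3 arrays against 3 cannot go below p = 0.1. Arrays of the same replicate number deviated from their group means with correlations of 0.143, -0.027 and 0.138. Arrays of different numbers were not compared in this way, so these values cannot decide whether the numbers pair the arrays. Lower bounds divide the brighter group's geometric mean by the floor.

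Lists used the brightest probe set per gene. The comparison, the lists and the naming rule were chosen with earlier results of these data known. Genes named were those of the labels and markers, up to 3 called members each way per list (or the 2 brightest where none was called), the 12 largest falls and rises, the 6 brightest per group and the 2 longest runs each way. Ties in run length were settled by the order of arm and gene names. Any other gene was chosen after its values were seen. Alternatives changed the offset, filter, scaling, threshold, trend, weights, arrays, block and probe set per gene.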

Additional observations from a re-analysis of the deposited data

How the results depend on the processing

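Lower calls numbered 1661 and higher calls 2849. Both were within 1.5 times of these under quantile, median and spike scaling, without a trend, with array weights, with only the 6 arrays compared and with filters on dim probe sets (1634 lower and 2826 higher of 9775 tested, or 1392 and 2442 of 6983). Each array left out in turn gave 1658 to 1695 lower and 2834 to 2880 higher. With the replicate number as a block there were 1661 lower and 2849 higher, the same counts as without it. With 1 probe set per gene 1481 of 10826 were lower and 2510 higher. Ribosomal protein scaling gave 3405 lower and 934 higher. It sets the reference at genes that were often higher themselves, with medians of 1.14 for RpL and 0.94 for RpS genes. Why these genes were higher was not tested. No minimum fold gave 3440 lower and 5232 higher, and a 4-fold minimum 1067 and 588. An offset of 64, which shrinks differences of dim probe sets by construction, gave 1492 higher, and an offset of 1 gave 2484 lower and 3814 higher.

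Genes named by the rule were followed through the 25 alternatives, except that with 1 probe set per gene. Filters on dim probe sets left some of them out. No called one changed direction where it was tested, and 117 of the 201 called kept their call in all such fits. Genes named after their values were seen were not part of this check. Ribosomal protein scaling ended 50 calls, an offset of 64 ended 30 and a 4-fold minimum 83. Relative to all probe sets, the median of kinesins was 0.21 and became -0.04 with ribosomal protein scaling, that of heterochromatin proteins 0.31 and -0.17, and that of thioredoxins 0.27 and -0.32. With the dimmest 50% of probe sets left out it was -0.34 for kinesins, -0.02 for heterochromatin proteins and -0.25 for thioredoxins, and the medians of nuclear transport factors (0.59), caspases (0.29) and general glycolysis (0.12) became -0.10, -0.10 and -0.09. Ejaculatory duct and neuronal markers, near 0, also changed sign under some alternatives. The counts of lists without single arrays, the medians held at bounds and the families were added after seeing the data. The promoter motif search was not run. Probe sets at the floor give bounds only.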

Other observations

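Gene families grouped by symbol stem were counted after the values had been seen, as a description. Mitochondrial ribosomal proteins stood on the side of the rises: of 64 measured genes 48 were higher in testes labelled comr and none lower, 14 of them also with ribosomal protein scaling. Over all probe sets 20.4% were higher and 11.9% lower. Of 18 RNA polymerase subunit genes (Polr) 14 were higher and none lower, and 5 rises held with ribosomal protein scaling. Of 17 Sec genes, most of them of the secretory pathway, 11 were higher and none lower, and none of the 11 held with that scaling.

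Of 20 Atg genes, for autophagy proteins, 11 were higher and 1 lower, and 3 rises held with ribosomal protein scaling. The lower one was Atg8b, the testis copy of the autophagosome protein Atg8, with 0.7, 0.5 and 0.7 on the arrays labelled comr, against 986.9, 1135.2 and 1161.8 on the control arrays, at least 53.8-fold lower. Of 26 Vps genes of endosomal sorting 11 were higher and 1 lower, and 2 rises held with that scaling. Sensory families gave few calls: of 179 odorant, gustatory and ionotropic receptor, odorant-binding and pickpocket channel genes 112 lay at the floor on all 6 arrays, 3 were higher and 2 lower. Of 83 cytochrome P450 genes 9 were lower, 10.8% and close to the share of all probe sets, and 6 were higher, 7.23%.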
